A study of Mus musculus with 4 samples.

Results

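In the hearts of mice whose endothelial nuclei carry a GFP tag, chromatin that was open in both sorted populations was not always open to the same degree. The regions described here are distal regions of open chromatin found in endothelial (GFP+) and in non-endothelial (GFP-) nuclei, but ranked much higher in the endothelial list. They were chosen by peak strength. Overlapping peaks of both lists were merged, regions with every summit more than 1000 bp from a protein-coding transcript start were kept, and each peak received its rank from 0 to 100 by area within its own list. A region is a member when its GFP+ rank exceeds its GFP- rank by 20 or more. There were 2506 members among 86649 merged regions, of which 53996 had peaks of both lists and 40910 of these were distal.

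In ATAC-Seq a transposase places adapters where DNA is free of nucleosomes, so that peaks mark promoters, enhancers and insulators. The libraries came from nuclei of whole hearts of C57BL/6 males aged 8 to 12 weeks. All animals were NuTRAP/Cdh5-Cre: Cre is driven by the promoter of Cdh5, the gene of VE-cadherin, and switches on a GFP tag in endothelial cells, and nuclei were sorted by flow cytometry into GFP+ and GFP-. The GFP- nuclei carry the same alleles without expressing the tag and are a mixture of every other cardiac cell. Each population had 2 replicates, but a single peak list was called from both together, so no value below has a replicate check and no p-value is given. The GFP- list held 78912 peaks and the GFP+ list 65008, and neither gives read totals. Ranges in parentheses after a share are Wilson 95% intervals; they reflect the number of regions counted, treat neighbours as independent and leave out replicate error, and groups are said to differ where they do not overlap. The number of nuclei in which a region is open and how open it is in each nucleus cannot be told apart.

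Distal open regions are mostly enhancers, stretches of DNA to which transcription factors bind and from which they act on a promoter that may be far away. In endothelial cells the ETS family (Erg, Fli1, Ets1 and relatives) and the SoxF factors (Sox7, Sox17 and Sox18) are the best known of these factors, and they bind sites around a GGAA core and an ATTGT core, respectively. MEF2, GATA and TEAD factors act in cardiomyocytes, but not there alone. The paper states that endothelial cells also express MEF2C, and Mef2c and Gata2 are counted here among the endothelial factors. AP-1 and TCF21 act in fibroblasts among other cells, while CTCF marks insulators in all of them.

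The labels were checked at promoters, by the highest-ranked peak of each list reaching within 250 bp of a start. A list without such a peak counted as rank 0. Regions with a summit within 1000 bp of a start could not be members, but a wide member peak can still reach a start. The GFP+ peak of a member near Egfl7 does, so promoter and member values were not wholly independent. All 16 endothelial marker genes had a GFP+ promoter peak and 15 of them ranked higher in GFP+ nuclei, the exception being the angiopoietin receptor gene Tek (rank 54.1 against 81.1). Of the 16, 11 also had a GFP- promoter peak. Of the 8 fibroblast markers, 7 had a promoter peak in GFP- nuclei and 1, Pdgfra, in GFP+ nuclei. Promoters of 7 of 8 cardiomyocyte markers were open in both lists, with Myh6 at a rounded rank of 100 in each. All 7 mural markers had a GFP- promoter peak and 4 also a GFP+ one, such as the pericyte gene Cspg4 (85.55 in GFP- and 76.07 in GFP+ nuclei). All 3 lymphatic markers, Prox1, Lyve1 and Pdpn, ranked lower in GFP+ nuclei, where Pdpn had no promoter peak. Whether nuclei of these cells on the other side of the sorting gate have a part in the members was not tested.

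The 14 windows that follow show the DNA at the members named in the text that hold an ETS or SOX word within 100 bp of the GFP+ summit, and, for comparison, the members with the largest difference in rank of all, near Nrarp and Fat4, which hold neither. Each is 200 bases of the forward strand of GRCm38 (mm10), taken from the RefSeq copy of GRCm38.p6, and the name is that of the gene with the nearest transcript start. Capitals mark the words searched, CAGGAAGT for ETS and CCATTGT for SOX, on either strand.
Sox13 chr1:133448367-133448566: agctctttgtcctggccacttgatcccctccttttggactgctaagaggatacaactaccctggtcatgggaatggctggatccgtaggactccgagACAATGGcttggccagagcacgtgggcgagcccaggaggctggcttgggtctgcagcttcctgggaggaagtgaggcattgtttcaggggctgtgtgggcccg
Rpl3 chr15:80051489-80051688: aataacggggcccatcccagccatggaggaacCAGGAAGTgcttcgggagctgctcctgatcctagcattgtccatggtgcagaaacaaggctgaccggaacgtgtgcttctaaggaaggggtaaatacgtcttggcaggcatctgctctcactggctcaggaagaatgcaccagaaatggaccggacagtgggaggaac
N4bp3 chr11:51646815-51647014: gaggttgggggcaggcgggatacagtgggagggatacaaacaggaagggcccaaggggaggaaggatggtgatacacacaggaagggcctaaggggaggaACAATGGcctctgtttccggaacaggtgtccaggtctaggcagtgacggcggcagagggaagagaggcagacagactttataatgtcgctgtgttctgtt
Egfl7 chr2:26578490-26578689: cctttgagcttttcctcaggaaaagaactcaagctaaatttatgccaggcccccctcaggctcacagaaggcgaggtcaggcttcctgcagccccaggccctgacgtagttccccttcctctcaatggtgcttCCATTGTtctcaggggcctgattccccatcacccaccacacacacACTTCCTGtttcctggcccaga
Klf7 chr1:64041155-64041354: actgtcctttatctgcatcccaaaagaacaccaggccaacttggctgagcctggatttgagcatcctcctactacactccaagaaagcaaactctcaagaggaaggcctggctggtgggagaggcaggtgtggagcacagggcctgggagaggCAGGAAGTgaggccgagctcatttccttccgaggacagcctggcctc
Ets1 chr9:32901346-32901545: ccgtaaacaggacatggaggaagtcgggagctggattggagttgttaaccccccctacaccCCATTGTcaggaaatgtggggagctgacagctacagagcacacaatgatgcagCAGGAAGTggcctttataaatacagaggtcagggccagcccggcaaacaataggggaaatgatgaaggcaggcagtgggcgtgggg
Adgrl2 chr3:148981972-148982171: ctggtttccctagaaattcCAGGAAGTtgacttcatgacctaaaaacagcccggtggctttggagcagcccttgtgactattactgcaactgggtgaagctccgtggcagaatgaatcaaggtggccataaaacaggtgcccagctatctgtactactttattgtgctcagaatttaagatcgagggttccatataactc
Col4a1 chr8:11367795-11367994: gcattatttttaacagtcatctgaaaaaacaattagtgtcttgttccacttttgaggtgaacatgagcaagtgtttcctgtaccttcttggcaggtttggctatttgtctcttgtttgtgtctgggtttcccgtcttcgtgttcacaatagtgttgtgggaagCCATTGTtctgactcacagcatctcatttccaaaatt
Col4a2 chr8:11308721-11308920: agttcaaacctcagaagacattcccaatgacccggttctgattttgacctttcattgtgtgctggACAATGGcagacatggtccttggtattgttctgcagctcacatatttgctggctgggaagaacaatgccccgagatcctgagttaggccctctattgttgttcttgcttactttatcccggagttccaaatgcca
Id1 chr2:152728268-152728467: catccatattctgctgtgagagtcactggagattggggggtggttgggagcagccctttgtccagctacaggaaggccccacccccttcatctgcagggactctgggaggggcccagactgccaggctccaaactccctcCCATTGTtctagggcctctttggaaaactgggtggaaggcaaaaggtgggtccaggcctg
Ptgs1 chr2:36198661-36198860: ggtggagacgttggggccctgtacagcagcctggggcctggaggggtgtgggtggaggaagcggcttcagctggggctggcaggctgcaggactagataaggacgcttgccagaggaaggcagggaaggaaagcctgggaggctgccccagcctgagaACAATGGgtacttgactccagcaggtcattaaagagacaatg
Ptprb chr10:116288180-116288379: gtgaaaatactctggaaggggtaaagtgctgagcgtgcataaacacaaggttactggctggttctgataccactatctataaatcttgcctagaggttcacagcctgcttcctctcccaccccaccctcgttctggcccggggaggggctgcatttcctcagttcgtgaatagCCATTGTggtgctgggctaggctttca
Nrarp chr2:25177827-25178026: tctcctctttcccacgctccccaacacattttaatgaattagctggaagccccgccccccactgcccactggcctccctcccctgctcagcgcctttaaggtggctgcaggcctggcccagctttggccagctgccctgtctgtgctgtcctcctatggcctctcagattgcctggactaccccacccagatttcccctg
Fat4 chr3:39220009-39220208: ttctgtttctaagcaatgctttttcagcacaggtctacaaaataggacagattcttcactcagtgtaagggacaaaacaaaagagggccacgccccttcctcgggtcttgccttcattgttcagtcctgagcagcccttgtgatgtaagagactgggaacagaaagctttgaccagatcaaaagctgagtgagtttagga
The windows differ in what surrounds the word. The window near Egfl7, the gene of a secreted endothelial protein, and that near Ets1 held an ETS and a SOX word each, the other windows with capitals held a single one, and GC content in the 14 windows ran from 40% to 61%.

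The members lay far from the diagonal on the plot of ranks. Their median GFP+ rank was 53.5 (quartiles 40.7 to 68.7) and their median GFP- rank 17.98 (quartiles 8.23 to 30.7), so that a typical member was a peak of middling strength in endothelial nuclei and a weak one in the rest. The rule used these values, and they are given as a description only. In 54.3% of members the GFP- rank was under 20, and in 5.15% it reached 50. The difference was 20 to 30 in 1258 members, 30 to 40 in 584, 40 to 50 in 343, 50 to 60 in 197 and 60 or more in 124. Members made up 6.13% of the 40910 shared distal regions, while 14.0% had a difference of -20 or lower, a count that the same ranks produce and from which nothing is read. The median difference over all shared distal regions was -2.70.

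**Figure D1:**
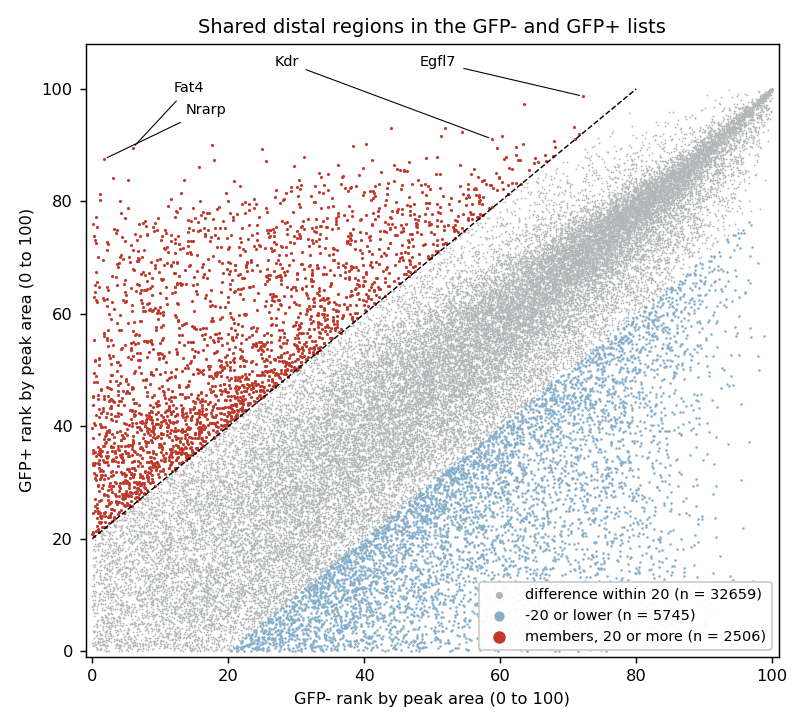
Rank by peak area in the GFP- list (horizontal axis, 0 to 100) and the GFP+ list (vertical axis, 0 to 100) of 40910 shared distal regions, 1 point each. The 2506 members (red) lie on or above the dashed line, where the GFP+ rank is 20 above the GFP- rank, and the named points include the regions near Nrarp and Fat4 at the upper left, with GFP- ranks of 1.7 and 5.92.

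The other deposited values belong to the same peaks, area being the value ranked and length adding to it, and are given as a description. The median peak length was 509 bp in GFP+ and 333 bp in GFP- nuclei, and 90.0% of members had the longer peak in GFP+ nuclei. In 70.4% the GFP- peak lay wholly inside the GFP+ peak. The median area was 766 in GFP+ and 323 in GFP- nuclei, with a median ratio of 2.17, against 0.878 in shared distal regions whose ranks differed by less than 20. The -log10 p of the summit, with medians of 5.48 and 4.10, was higher in GFP+ nuclei in 98.6% of members. Since the rule required overlapping peaks, close summits follow from it in part. The summits lay a median of 29 bp apart (quartiles 8 to 66), against 19 bp (5 to 47) in shared distal regions whose ranks differed by less than 20. They lay within 100 bp in 84.7% of members, and 96.7% of members consisted of a single peak of each list.

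The largest difference was found near Nrarp, a Notch target gene whose product limits Notch signalling. The intergenic region chr2:25176451-25178929 lay 2.83 kb from the Nrarp start and had a GFP+ rank of 87.5 and a GFP- rank of 1.7. Its GFP+ peak spanned 2479 bp and its GFP- peak 444 bp. The region thus stood among the strong peaks of the endothelial list and among the weakest peaks of the other. A region 333 kb from the start of Fat4, an atypical cadherin gene, followed at ranks of 89.5 and 5.92 (chr3:39219883-39221007). An intron of Ptprr, a receptor tyrosine phosphatase gene, held the third at ranks of 84.2 and 3.04 (chr10:116205603-116207073).

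The other members among the 10 with the largest differences were likewise strong in GFP+ nuclei and weak in GFP- nuclei. The regions near Fam124b (chr1:80217863-80218687) and Sox13 (chr1:133448239-133449007) had GFP+ ranks of 81.3 and 80.3 and GFP- ranks of 1.19 and 1.14, and the latter, which carries the SOX word shown above, lies 24.1 kb from the start of Sox13, a SoxD factor gene. The intergenic region 28.9 kb from Rpl3, a ribosomal protein gene, had ranks of 83.8 and 5.25 (chr15:80050989-80052390) and carries an ETS word. Regions near Mmaa, Eepd1, Stxbp6 and Ctnnb1, the gene of beta-catenin, had differences between 74.7 and 76.8. The nearest start is only a label: the Ctnnb1 region lies 102 kb from that start, in an intron of Ulk4 (chr9:121058022-121058540).

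The members with the highest GFP+ ranks were broad peaks that were also substantial in GFP- nuclei. The first lay 2.78 kb from the Egfl7 start in an intron of Agpat2 (chr2:26592366-26597548), with ranks of 98.7 and 72.2 and peak lengths of 5183 and 1298 bp. A second region near Egfl7 (chr2:26577209-26580343) had ranks of 93.0 and 51.9 and holds the ETS and SOX words shown above. Its GFP+ summit lay 1.42 kb from the Egfl7 start, but its GFP+ peak of 3135 bp reached to within 250 bp of that start. Egfl7, a defining gene of endothelium, thus had 2 of these 10 members. Between them ranked regions near Atp5mpl (97.4 and 63.5) and in an intron of N4bp3 (93.3 and 70.8), the latter with a SOX word. An intron of Zmiz1, a transcriptional coactivator gene, reached 93.0 and 43.9 (chr14:25524712-25527232). The region near Elk3, an ETS factor gene, reached 92.3 and 54.4 (chr10:93335632-93337602), and an intron of Klf7, which holds an ETS word, 92.1 and 71.6. The remaining 3 lay in an intron of Klhl3, in an intron of Ehd2 (nearest start Nop53) and 143 kb from Kdr, the gene of VEGF receptor 2, where the ranks were 91.1 and 58.8 (chr5:75834747-75836466).

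The regions nearest to the limit of the rule were picked by their difference in rank, which is therefore close to 20 on both sides. The 3 members just inside, near C2cd4d, Nek6 and Auts2, had differences of 20.00012, 20.0115 and 20.0266. The 3 regions just outside, near Tnfrsf8, Kcnd3 and Rbfox1, had 19.99911, 19.99455 and 19.99312.

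Members were placed in the genome much like other shared distal regions, though they differed in coding exons and in the median distance to a start. An intron of a protein-coding gene held 50.7% of the GFP+ summits (48.7 to 52.7%), against 51.6% (51.1 to 52.2%) of regions with a difference within 20. Coding exons held 1.44% of members (1.04 to 1.99%), less than the 2.21% (2.06 to 2.38%) of regions within 20. The interval of regions at -20 or lower (1.79%, 1.48 to 2.17%) overlapped that of members. UTR exons held 2.32% of members (1.80 to 2.98%) and 2.32% of regions within 20. The median distance to the nearest protein-coding start was 26125 bp (95% interval of the median 23841 to 28049 bp), against 22510 bp, and 31.9% of members (30.1 to 33.8%) lay more than 50000 bp away, against 28.4% (27.9 to 28.9%). Beyond 10000 bp the shares were alike, at 71.1% and 71.3%. Beyond 100000 bp, where 16.0% (14.6 to 17.5%) of members lay, the interval overlapped that of regions within 20 (14.1 to 14.9%). Their share of shared distal regions ran from 4.61% on chromosome X to 7.96% on chromosome 12. Median GC content in 200 bp at the summit was 50.5% in members, 51.5% in regions within 20 and 52.0% in regions at -20 or lower, and repeats covered 9.04% of the members' windows on average. For these and the following counts, 3 members on unplaced contigs were left out, leaving 2503.

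The ETS word was more frequent at members than at other shared distal regions. CAGGAAGT stood within 100 bp of the summit in 170 of 2503 members, or 6.79% (5.87 to 7.85%), against 2.39% (2.23 to 2.57%) of regions within 20 and 3.43% (2.99 to 3.93%) of regions at -20 or lower. In windows of the same length centred 1000 bp to either side of the members' summits it was found in 1.84% (1.501 to 2.25%). Distal peaks found only in GFP+ nuclei held it in 5.98% (5.49 to 6.52%), an interval that overlaps that of members, and distal peaks found only in GFP- nuclei in 3.29%. Sequence did not enter the choice of members, but the words were chosen with earlier results of these data known. The paper already reports ERG and ETS sites as enriched in peaks unique to these GFP+ nuclei. Another ETS word, CCGGAAGT, added after the data had been seen, was rarer: 0.639% of members held it (0.394 to 1.04%) and 0.451% of regions within 20 (0.384 to 0.529%), with overlapping intervals. It was less frequent in the windows beside the members (0.160%, 0.0810 to 0.315%), and at GFP+ ranks of 60 to 80 more frequent in members (1.22%, 0.665 to 2.23%) than in regions within 20 (0.470%, 0.348 to 0.635%).

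The SOX word behaved alike. CCATTGT was found in 143 members, or 5.71% (4.87 to 6.69%), against 2.51% (2.35 to 2.69%) within 20, 2.44% (2.07 to 2.87%) at -20 or lower and 2.90% (2.47 to 3.40%) beside the members. In GFP+ only peaks the share was 5.99% (5.50 to 6.53%). An ETS or a SOX word stood in 11.9% of members (10.7 to 13.2%), against 4.84% (4.62 to 5.08%) within 20. Both words stood together in 15 members, or 0.599% (0.364 to 0.986%), against 0.0644% (0.0421 to 0.0984%). The words of these 2 families never overlapped each other in members, and the ETS word overlapped a FOX word in 1 window and an AP-1 word in 1 window.

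Other words differed less between members and regions within 20, or in the other direction. The KLF word GGGTGTGG was found in 3.76% of members (3.08 to 4.57%) and 2.18% (2.03 to 2.34%) of regions within 20, and the EBF word CCCNNGGGA in 5.27% (4.47 to 6.22%) and 3.92% (3.72 to 4.14%). The EBF share of regions at -20 or lower had an interval overlapping that of members (5.97%, 5.39 to 6.61%), and that of GFP- only peaks was higher (7.685%, 7.34 to 8.04%). The MEF2 motif, a consensus of factors that act in muscle and other cells, was less frequent in members, at 5.07% (4.28 to 6.01%) against 7.75% (7.46 to 8.04%) within 20. It was likewise low in regions at -20 or lower (4.53%, 4.02 to 5.09%) and in distal peaks found only in GFP+ (4.43%) or only in GFP- nuclei (3.31%). The CTCF word AGGGGGCGC was also less frequent, at 0.519% (0.304 to 0.887%) against 1.47% (1.34 to 1.61%). The AP-1 word TGAGTCA was found in 7.11% of members (6.17 to 8.19%), with an interval that overlaps that of regions within 20 (6.53%, 6.27 to 6.81%) and lies below that of regions at -20 or lower (9.40%, 8.67 to 10.2%). The words AGATAAG of GATA factors (3.68%), TGTTTAC of FOX factors (2.80%), CATTCCA of TEAD factors (4.04%), AACAGCTG of TCF21 (2.52%) and TGACCTTTG of nuclear receptors (0.479%) and the NFI motif (0.0799%) had intervals overlapping those of regions within 20. Any of the 13 words was found in 38.2% of members (36.4 to 40.2%), against 34.2% (33.7 to 34.7%) of regions within 20, so most regions of both kinds hold none of them.

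**Figure D2:**
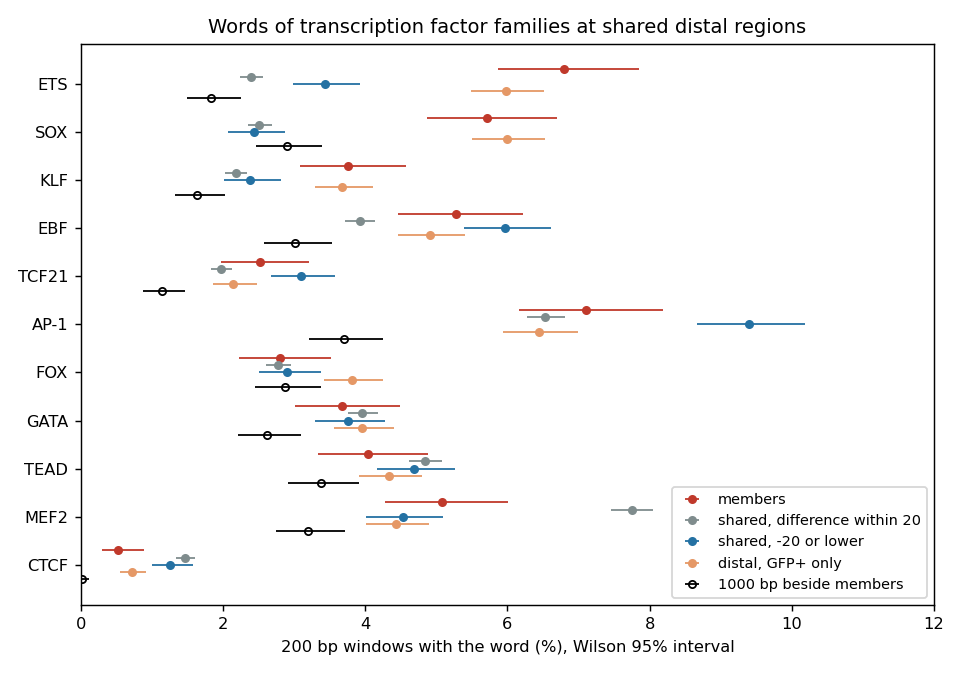
Share of 200 bp windows (horizontal axis, %) that hold the word of each factor family, with Wilson 95% intervals as bars, for members (red), shared distal regions within 20 (grey) or at -20 or lower (blue), distal peaks found only in GFP+ nuclei (orange) and windows centred 1000 bp beside members (open circles). Pooled over all ranks, members and GFP+ only peaks lie close to each other at ETS (6.79% and 5.98%) and SOX (5.71% and 5.99%), to the right of the other shared regions.

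ETS and SOX words were concentrated at the summit. Within 50 bp of the members' GFP+ summits there were 94 ETS words, or 0.376 per 1000 regions and bp, against 0.0919 at 400 to 500 bp. For SOX the density fell from 0.352 to 0.148. Regions within 20 showed 0.13 and 0.0794 for ETS and a flat course for SOX, at 0.134 and 0.131. Members and regions within 20 thus differed near the summit and came close to each other 400 to 500 bp away, which is outside most of these peaks.

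**Figure D3:**
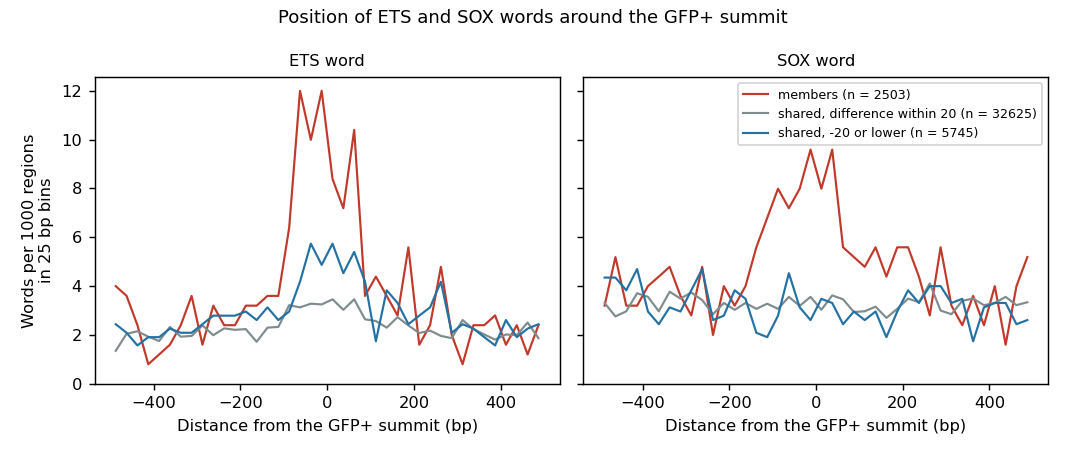
Number of ETS (left) and SOX (right) words per 1000 regions in 25 bp bins (vertical axis) by distance from the GFP+ summit in bp (horizontal axis), for 2503 members (red), 32625 shared distal regions within 20 (grey) and 5745 at -20 or lower (blue). The members' lines rise above the others within about 100 bp of the summit.

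Members were next compared with shared regions of like GFP+ rank. At GFP+ ranks of 20 to 40 the ETS share was 2.90% in members (1.82 to 4.59%) and 2.27% (1.95 to 2.65%) in regions within 20, with overlapping intervals. At 40 to 60 it was 6.03% and 2.27%, at 60 to 80 it was 9.77% (7.92 to 12.0%) and 2.64% (2.33 to 2.997%), and at 80 to 100 it was 10.1% (6.38 to 15.5%) and 2.77% (2.304 to 3.33%). The share thus rose with rank in members and stayed near its starting level in regions within 20. SOX went from 3.07% to 10.7% (6.84 to 16.2%) in members across the same bands and from 2.69% to 2.54% in regions within 20. In no band of GFP+ rank did the members' interval lie above that of distal peaks found only in GFP+ nuclei. The ETS share of the latter was 6.599% (5.63 to 7.73%) at 20 to 40, above that of members. Their SOX share was 5.86% (4.94 to 6.93%) at 20 to 40, against 3.07% (1.95 to 4.79%) in members, and 8.72% (7.18 to 10.5%) at 40 to 60, against 4.63% (3.46 to 6.18%). In the other bands the intervals of members and GFP+ only peaks overlapped. At 80 to 100 only 9 GFP+ only peaks were counted, too few for a comparison. The words also became more frequent with the difference in rank: ETS went from 5.33% (4.22 to 6.71%) at differences of 20 to 30 to 9.68% (5.62 to 16.2%) at 60 or more, with overlapping intervals, and SOX from 5.01% (3.94 to 6.36%) to 12.1% (7.47 to 19.002%).

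**Figure D4:**
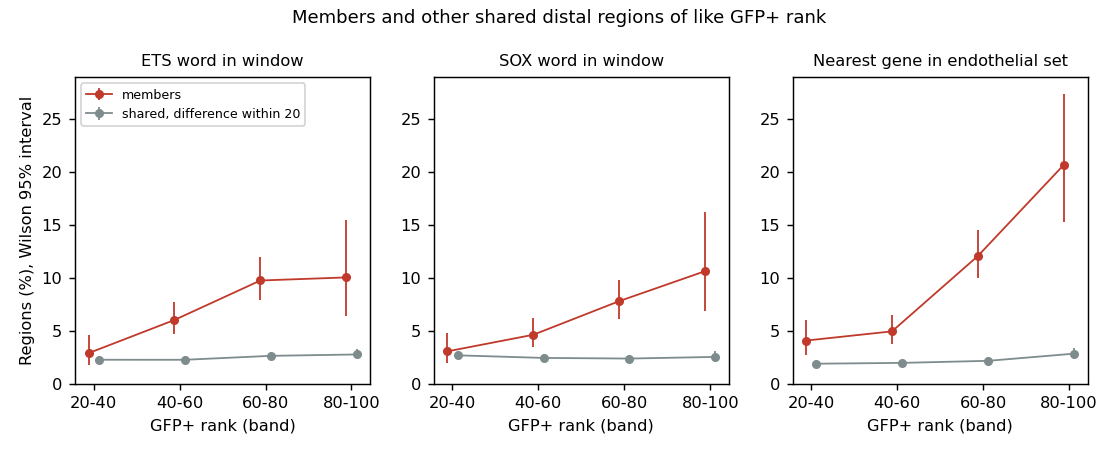
Share of regions (vertical axis, %) with an ETS word, with a SOX word and with a nearest gene of the endothelial set, by band of GFP+ rank (horizontal axis), for members (red) and shared distal regions within 20 (grey), with Wilson 95% intervals as bars. In the band of 80 to 100 the members stand at 10.1%, 10.7% and 20.7%, and the other regions at 2.77%, 2.54% and 2.85%.

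The members gathered near genes of endothelial cells. Of 179 genes that the study drew as an endothelial set from single-cell RNA of other hearts, 176 matched the annotation, 149 were the nearest gene of a shared distal region and 100 were the nearest gene of a member. Their 946 shared distal regions included 204 members, or 21.6% (19.1 to 24.3%), against 6.12% over all genes. Members thus had an endothelial nearest gene in 8.15% of cases (7.14 to 9.29%), against 2.04% (1.89 to 2.20%) for regions within 20 and 1.32% (1.06 to 1.65%) for regions at -20 or lower. By GFP+ rank this share went from 4.09% (2.76 to 6.01%) at 20 to 40 to 20.7% (15.3 to 27.4%) at 80 to 100, while in regions within 20 it went from 1.90% to 2.85%.

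Sets of other cell types stood lower. The fibroblast set had 25 members among 747 shared distal regions, or 3.35% (2.28 to 4.89%), and 28.0% of its regions (24.9 to 31.3%) were at -20 or lower. The cardiomyocyte set had 16 of 607, or 2.64% (1.63 to 4.24%), with 10.9% at -20 or lower (8.64 to 13.6%). The non-specific set, which shares 3 genes with the endothelial set, had 159 of 2206, or 7.21% (6.201 to 8.36%). Cardiomyocyte genes were thus low in members and also below the share of all genes at -20 or lower (14.1%, 13.7 to 14.4%), so most of their regions had like ranks in both lists.

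Members had 1875 nearest genes, of which 1457 had 1 member, 292 had 2 and 126 had 3 or more. Trib2, a pseudokinase gene, had the most, 8 of its 29 shared distal regions, with the largest difference (58.2) 324 kb from its start at ranks of 68.7 and 10.5 (chr12:16140541-16141083). Magi1, a scaffold of cell junctions, had 7 of 22. Fli1 had 6 of 9, Ets1 6 of 19, Ablim1 6 of 31, Podxl 6 of 9 and Tcf4, a bHLH factor gene, 6 of 29. Ctnnb1, Diaph3 and Kdr had 5 each, of 14, 10 and 11. Of these 10 genes, 6 (Fli1, Ets1, Podxl, Tcf4, Ctnnb1 and Kdr) belong to the endothelial set.

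Transcription factor genes of endothelium were rich in members. Of 119 shared distal regions nearest to 19 ETS factor genes, 21 were members, or 17.7% (11.8 to 25.5%), spread over 7 genes. The Fli1 intron region chr9:32506131-32506794 had ranks of 78.9 and 5.23. A region 205 kb from Ets1 had 78.6 and 18.4 (chr9:32901130-32901968) and itself holds an ETS and a SOX word. Elk3 had 4 of 10, with 83.7 and 20.9 in its intron. The list of other endothelial factors had 27 of 147, or 18.4% (12.9 to 25.4%), in 16 genes. Among them Sox17, a SoxF factor gene, had 3 of 4, with ranks of 62.5 and 1.74 in a region 120 kb from its start (chr1:4617485-4618089). Klf2, which responds to blood flow, had 2 of 5, with 70.0 and 0.809 (chr8:72336288-72337707).

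Receptor and signalling genes followed. VEGF signalling had 11 of 69 regions, or 15.9% (9.14 to 26.3%), with 5 of 11 near Kdr, 3 of 6 near Flt1, the decoy receptor VEGFR1, and 1 of 15 near the co-receptor gene Nrp1. The Kdr intron region chr5:75961878-75962859 had ranks of 69.6 and 1.55. G protein coupled receptors of vessels had 23 of 103, or 22.3% (15.4 to 31.3%): S1pr1, the sphingosine 1-phosphate receptor gene, had 5 of 17, Calcrl, the adrenomedullin receptor gene, 4 of 7 and the adhesion receptor gene Adgrl2 4 of 29, the first of them with the ETS word shown above at ranks of 51.0 and 13.9. Calcrl reached ranks of 69.3 and 6.64 (chr2:84229307-84230281). Notch signalling had 11 of 81, or 13.6% (7.76 to 22.7%), of which 5 of 10 were near Notch1, with 77.0 and 9.66 in its intron (chr2:26492612-26493939), 3 of 8 near the ligand gene Jag1 and 2 of 17 near the target gene Hes1. Guidance genes had 23 of 143, or 16.1% (10.96 to 23.0%), including 4 of 10 near Sema6a and 4 of 16 near Plxna2.

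Genes of the endothelial surface and of transport showed the same. Junction and adhesion genes had 18 of 119 regions, or 15.1% (9.79 to 22.7%), and the Podxl intron region chr6:31544143-31545218, in the gene of the sialomucin podocalyxin on the vessel lumen, had ranks of 76.8 and 20.7. Fatty acid uptake had 9 of 41, or 22.0% (12.0 to 36.7%), with 3 of 7 near Tcf15 and 2 of 5 near Meox2, whose products act as a pair in fatty acid transport by cardiac endothelium, and 2 of 11 near Lpl. Tcf15 and Meox2 also belong to the list of other endothelial factors, so that 5 of these 9 members were counted there too. The Tcf15 region had ranks of 82.9 and 34.0 and the Meox2 region 82.9 and 45.5. Caveolae genes had 8 of 55, or 14.5% (7.56 to 26.2%), including both shared distal regions of Cav2 and a region near Cavin2 at 90.3 and 40.3 (chr1:51265051-51266349).

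In the remaining endothelial lists, apart from that of lymphatic and endocardial cells given below, the interval reached the share of all genes, 6.12%. These were BMP, endoglin and ALK1 (12 of 119, 5.86 to 16.8%), basement membrane (9 of 83, 5.81 to 19.3%), vascular tone (5 of 41, 5.32 to 25.5%), angiopoietin and Tie (2 of 26, 2.14 to 24.1%) and haemostasis (2 of 26, 2.14 to 24.1%). Ranks of single members in them follow from the rule and are given as a description. The region near Id1, a target gene of BMP, had ranks of 82.1 and 30.5 and a SOX word. An intron of the phosphatase gene Ptprb, a partner of Tie2, had 62.6 and 0.493 (chr10:116288125-116288614), again with a SOX word. In the basement membrane list, SOX words stood in the members of largest difference of both type IV collagen genes, Col4a1 (70.2 and 5.36) and Col4a2 (71.3 and 7.57), and in the tone list in that of Ptgs1, the cyclooxygenase 1 gene (68.3 and 43.3). Among lists of other cell types, members made up 3 of 172 regions for cardiomyocytes (1.74%, 0.595 to 5.002%) and 0 of 45 for fibroblasts (up to 7.87%). For mural cells it was 2 of 45, both near Kcnj8, and for macrophages and lymphocytes 1 of 17 (5.88%). The list of lymphatic and endocardial cells, which are endothelial too, had 3 of 52 (5.77%, 1.98 to 15.6%). Of these 5 lists, that of cardiomyocytes alone had an interval wholly below the share of all genes, and the shares of the last 2 were close to it. Of the fibroblast list's 45 regions, 20 were at -20 or lower (44.4%, 30.9 to 58.8%).

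**Figure D5:**
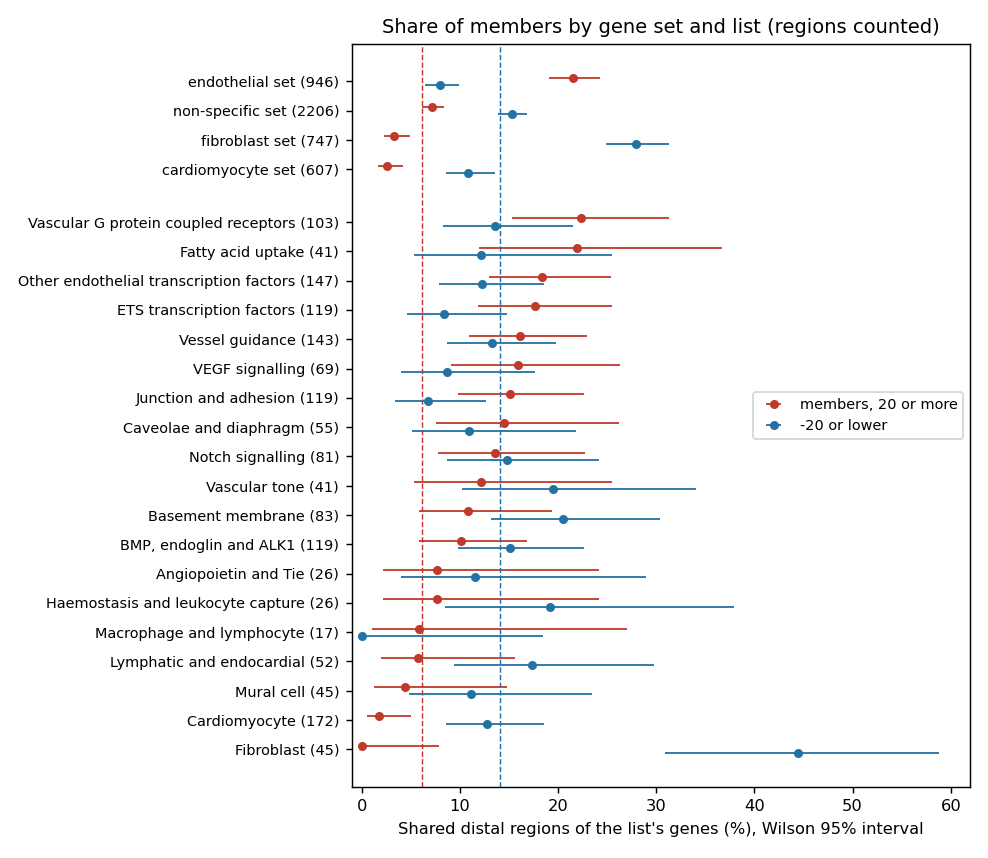
Share of the shared distal regions of each gene set or list (horizontal axis, %) that were members (red) or at -20 or lower (blue), with Wilson 95% intervals as bars, the number of regions in parentheses and dashed lines at the share over all genes (6.12% and 14.1%). The endothelial set stands at 21.6% in red, and the fibroblast set (28.0%) and fibroblast list (44.4%) stand out in blue.

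Members tended to lie together and beside distal regions with a called peak in the GFP+ list alone. Whether chromatin of such regions is closed in GFP- nuclei was not tested. A distal peak found only in GFP+ nuclei, which did not enter the rule, lay within 25 kb of 48.4% of members (46.5 to 50.4%), against 29.9% (29.4 to 30.4%) for regions within 20 and 27.1% (25.99 to 28.3%) for regions at -20 or lower. Distal peaks found only in GFP- nuclei were less often near members, at 47.4% (45.5 to 49.4%), than near regions within 20 (53.3%, 52.8 to 53.9%) or at -20 or lower (67.2%, 66.0 to 68.4%). Another member lay within 25 kb of 23.9% of members (22.3 to 25.6%), against 12.6% (12.3 to 13.0%) of regions within 20. Chains of members at steps of at most 25 kb numbered 209 with 2 members, 42 with 3, 10 with 4 and 3 with 5.

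The 3 longest chains, named after their values were seen, lay near Heg1, Exoc6 and Notch1. At Heg1, the gene of a receptor needed for endothelial junctions, 5 of 10 shared distal regions over 39.3 kb were members (chr16:33675402-33714701), with differences from 22.9 to 49.4. At Notch1 it was 5 of 7 over 25.8 kb (chr2:26474630-26500401), with differences from 21.2 to 67.4. Near Exoc6 all 5 shared distal regions over 59.4 kb were members (chr19:37543463-37602856).

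Promoters of the members' genes differed little between the lists, with a median slightly below 0 that was closer to 0 than for other genes. Of the 1875 nearest genes, 1569 had a promoter peak, within 250 bp of a start, in either list. For 42 of them it was in the GFP+ list only and for 38 in the GFP- list only. The missing peak counted as rank 0, so large differences in either direction include absent peaks. Their median promoter difference, GFP+ minus GFP- rank, was -0.305 (95% interval -0.419 to -0.204), against -0.785 for genes nearest to regions within 20, -1.12 for those nearest to regions at -20 or lower and -0.814 over all 13372 genes with a promoter peak. A promoter difference of 20 or more was found in 65 of the 1569 genes, or 4.14% (3.26 to 5.25%), against 1.95% over all genes, and a difference of -20 or lower in 3.95% (3.10 to 5.03%), against 7.31% (6.89 to 7.77%). Among genes with 3 or more members the median was 0.106. A gene could thus have many members and an evenly open promoter: the Trib2 promoter had ranks of 99.4 in GFP+ and 99.1 in GFP- nuclei and that of Ets1 96.4 and 96.0. Promoters of endothelial genes with larger differences included those of Kdr (90.0 and 74.3), Podxl (87.5 and 75.4), Robo4 (60.05 and 14.3), which had 2 members of 4 regions, and Sox17 (91.3, with no GFP- promoter peak).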

How the data were processed

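ATAC-Seq libraries of GFP- and GFP+ heart nuclei, with 2 replicates each, were grouped by their labels. Per the submitters' processing notes, which name Bowtie2 2.3.5.1 and SAMtools 1.19, and the paper, which names another Bowtie2 version, the authors mapped the reads to mm10, used SAMtools and Picard for filtering and duplicate removal, and sampled the libraries down to equal size before calling peaks with Genrich from both replicates together. The deposited peak area is signal added up along the peak, so that longer peaks gain area. The deposited score is scaled up from that area per bp and limited to 1000, a limit that 83.9% of GFP- and 82.1% of GFP+ peaks reached. The deposited -log10 p belongs to the summit. Read totals were not analysed here.

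Peaks of both lists that overlapped by at least 1 bp were merged, and each peak was ranked from 0 to 100 by area within its list, ties averaged. Starts, exons and gene bodies were those of protein-coding transcripts in GENCODE M21, and sequence was GRCm38.p6. Words were searched on both strands in 200 bp around the best GFP+ summit, the MEF2 and NFI motifs as degenerate consensus sequences. A region's gene is the one with the nearest start. Since a list has no separate replicates, shares carry Wilson 95% intervals, medians of genes or distances carry binomial order-statistic intervals, and no test was made. The scripts were tested on simulated peaks and planted words. Python 3.11.15, numpy 2.4.6, pandas 2.3.3, scipy 1.17.1 and matplotlib 3.10.9 were used.

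The members, gene lists and words were chosen with earlier results of these data known. The study's sets come from single-cell RNA of other hearts. Named were the 10 members with the largest difference, the 10 with the highest GFP+ rank, the 3 on each side of the limit, the 10 genes with most members, up to 3 genes of each of 20 lists by number of members with the member of largest difference (1 list is not reported here), and the longest chains, added later. Alternatives changed the limit, the measure ranked, the peaks ranked, the overlap, the starts, the threshold on peaks, the window, the gene assignment and the distances.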

Additional observations from a re-analysis of the deposited data

How the results depend on the processing

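No paired analysis was possible because each list was called from both replicates together, and for the same reason no replicate could be left out. The count of 2506 members stayed within 1.5 times under ranking by -log10 p, an overlap of 50% of both peaks, starts of transcripts of all types and a distance of 2500 bp. It became 5846, 1248 and 664 with a difference of 10, 30 and 40, 5139 with area per bp, 4432 when only peaks of shared distal regions were ranked, and 1530 without the lowest 25% of each list by area, where 880 of the 2506 members remained, since a weak GFP- peak is then absent. Of the 2506, 1939 remained by -log10 p and 1542 by area per bp.

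The shares of ETS and SOX words and of endothelial nearest genes were above those of the other shared distal regions in all 11 alternatives from the start that were run for the words and all 8 run for the genes, with intervals apart. With a difference of 10, 30 and 40 the ETS share was 4.78%, 8.27% and 8.61%, and the endothelial share 5.34%, 10.6% and 12.8%. The SOX share was 4.49% with 10 and 8.01% with 40. With area per bp these 3 shares were 3.95%, 4.03% and 4.38%, for ETS, SOX and endothelial genes. The ETS share was 5.77% by -log10 p, and with only shared distal peaks ranked ETS was 5.35% and SOX 4.77%. Windows of 100 and 400 bp gave 3.52% and 9.51% for ETS and 3.16% and 9.35% for SOX. The endothelial share was 6.93% at an overlap of 50%. The word CCGGAAGT, chosen after seeing the data, gave 0.639%, with an interval overlapping that of other regions (0.451%). The share near a GFP+ only peak was 40.6%, 58.0% and 64.4% with a difference of 10, 30 and 40, and 30.004% and 76.5% within 10000 and 100000 bp. The median promoter difference was -0.481, -0.188 and -0.076 with 10, 30 and 40, and the median distance to a start was 23792 bp with area per bp, where its interval (22364 to 24942 bp) includes the 22606 bp of other regions. The cause of these shifts was not tested.

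Of the other words and sets, KLF, EBF, MEF2 and TEAD and the cardiomyocyte and non-specific sets stayed on the same side of the other shared regions in all their alternatives, CTCF in 10 of 11, AP-1, GATA and NFI in 9, FOX in 8, TCF21 in 7, nuclear receptors in 6 and the fibroblast set in 7 of 8. Intervals that lay apart for EBF did so in 6 of 11 alternatives and overlapped, for example, with a difference of 10 (4.28%, against 3.92%). For KLF (2.61% against 2.25%) and CTCF (1.42% against 1.32%) they overlapped with area per bp. The GFP- summits of members had a -log10 p of at least 2.90, with a median of 4.10.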
